A study of Mus musculus with 3 samples.

Results

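The 10 genes described encode the Piwi proteins, the Argonaute proteins, and the enzymes that cut microRNA precursors with Drosha's partner Dgcr8. They are Piwil1, Piwil2, Piwil4, Ago1, Ago2, Ago3, Ago4, Dicer1, Drosha and Dgcr8. They were found by their gene symbol in the annotation of the array platform, where all 10 have a probe set of their own, among 19938 genes so measured. RNA came from 3 samples labelled as spermatids, the haploid cells that turn into sperm, from wild type BALB/c male mice aged 30 days. The 3 samples are numbered replicates of 1 group, with no mutant, treatment or second age, so each gene could only be set against a background level on the same arrays. The protocol in the labels cuts and homogenises testis tubules and strains the cells through a 70 µm mesh, and it names no step that sorts a cell type. The labels do not say that the replicates came from separate animals, so p-values measure only the spread between these samples, which may be technical.

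Piwi and Argonaute proteins carry a small RNA that guides them to matching transcripts. Argonautes carry microRNAs. A microRNA begins as a hairpin in a nuclear transcript, which Drosha and its partner Dgcr8 cut out, and which Dicer1 trims in the cytoplasm to the duplex that an Argonaute takes up. Piwi proteins carry piRNAs, which in mouse are made without Dicer1, silence transposons in the germ line and, from the pachytene stage of meiosis on, come from large intergenic loci. In the mouse testis Piwil1 (MIWI) is known from pachytene spermatocytes and round spermatids, Piwil2 (MILI) from earlier germ cells through round spermatids, and Piwil4 (MIWI2) from the prospermatogonia of the fetus and newborn.

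Of the 10 genes, 7 were above background: Piwil1, Piwil2, Ago3, Ago4, Dicer1, Drosha and Dgcr8. Piwil4, Ago1 and Ago2 were not called. Among all 19938 named genes 36.6% were above background by the same test. Levels are the authors' Robust Multichip Average (RMA) values on the log2 scale from the Affymetrix Mouse Gene 1.0 ST array. Background was set at 7.98, below which lay 95% of the means of 211 vomeronasal receptor and hair keratin associated protein genes. These families were assumed to be silent in testis, which was not tested. A gene was called above background by limma's one-sided test of its mean over the 3 arrays, adjusted by Benjamini-Hochberg over all genes at 0.05. The median of those 211 genes was 4.77, so a gene that was not called is not shown to be silent. Probes of different genes do not bind equally well, so no order of abundance among the 10 genes is drawn.

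The label was checked against cell type markers. All 10 elongating spermatid markers, all 10 round spermatid markers and all 10 pachytene spermatocyte markers were above background, against 36.6% of all genes. Of 12 spermatogonia markers 4 were (33.3%), which is near that share. All 7 measured Leydig cell markers and 6 of 9 Sertoli cell markers (66.7%) were above background too. So were 4 of 9 peritubular, endothelial and stromal markers (44.4%) and 4 of 7 blood and immune markers (57.1%), shares nearer to that of all genes. All measured markers of pachytene spermatocytes and Leydig cells, and 6 of 9 of Sertoli cells, were thus above background beside those of spermatids. In RNA of mixed cells, fewer cells of a type and less RNA per cell cannot be told apart, and the part of each cell type in the levels below was not tested.

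**Figure D1:**
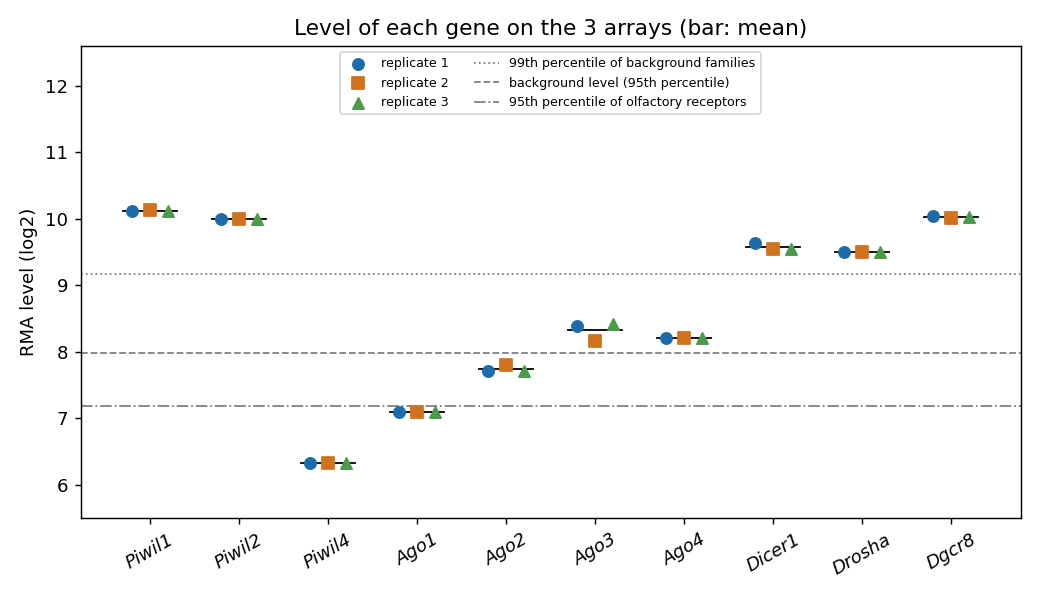
RMA level (log2) of each of the 10 genes on the 3 arrays, 1 point per array and a bar at the mean. The dashed line is the background level of 7.98, with the 99th percentile of the same families (9.16) dotted above it and the 95th percentile of olfactory receptor genes (7.18) below it. Piwil1, Piwil2, Dicer1, Drosha and Dgcr8 lie above all 3 lines, Ago3 and Ago4 between the upper lines, and Piwil4 and Ago1 below every line.

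Among the Piwi genes, Piwil1 and Piwil2 were above background and Piwil4 was not. Piwil1, whose protein cuts and binds germ cell transcripts and is needed in mouse for round spermatids to elongate, was at 10.11, 10.14 and 10.11 on replicates 1, 2 and 3. Its mean of 10.12 ± 0.014 (SD, n = 3) lay 2.14 above the background level, a 4.40-fold signal over it (limma, adjusted p = 1.03e-05). All 3 arrays were above the level, and they differed from each other by at most 0.025. Replicates 1 and 3 were equal, so the SD and p-value rest on the gap to replicate 2.

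Piwil2, needed in mouse for germ cells to pass through meiosis, had the same level of 10.001 on all 3 arrays. That is 2.02 above the background level, or 4.05-fold over it. For a gene whose values are tied, as Piwil2's are, an SD of 0 does not mean that there was no error, and the call only says on which side of 7.98 the level lies. Piwil4, whose protein guides DNA methylation of transposons in the nuclei of prospermatogonia, was at 6.33 on all 3 arrays. Its difference from the background level was -1.65. The level was still above the background families' median of 4.77.

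The promoters of Piwil1 and Piwil4 are shown because these genes lie on opposite sides of the background level. Both are RefSeq sequences of build GRCm38.p6, from 250 bases before to 50 bases after the gene start, in lower case and read 5′ to 3′ along the gene's strand. Capitals mark matches on either strand to the MYB-type motifs TAACNG and CAACNG. They were searched because Mybl1 encodes A-MYB, the factor known in mouse to activate pachytene piRNA loci and Piwil1. The Piwil1 promoter lies at chr5:128735996-128736295 on the plus strand, and that of Piwil4 at chr9:14740623-14740922 on the minus strand.
Piwil1: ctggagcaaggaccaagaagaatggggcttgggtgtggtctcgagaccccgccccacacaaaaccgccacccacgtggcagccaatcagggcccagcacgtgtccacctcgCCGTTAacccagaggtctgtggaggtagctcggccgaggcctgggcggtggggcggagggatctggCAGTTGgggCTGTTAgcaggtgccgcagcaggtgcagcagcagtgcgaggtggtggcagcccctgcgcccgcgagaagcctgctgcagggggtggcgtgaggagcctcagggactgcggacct
Piwil4: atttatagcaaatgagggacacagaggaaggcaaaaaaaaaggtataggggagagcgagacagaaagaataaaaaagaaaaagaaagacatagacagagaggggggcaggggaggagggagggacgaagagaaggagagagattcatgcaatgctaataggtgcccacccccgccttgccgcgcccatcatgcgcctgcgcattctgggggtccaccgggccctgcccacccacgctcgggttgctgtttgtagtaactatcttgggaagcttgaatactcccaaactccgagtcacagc

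The Piwil1 window held 2 matches to TAACNG, starting 139 and 64 bases before the gene start, and 1 match to CAACNG, starting 73 bases before it. All 3 matches were on the opposite strand. The Piwil4 window shown held neither motif, which says only that these letters are not in these 300 bases. A second Piwil4 start in the table had 1 match to CAACNG. Among all 32851 promoters of the table, 23.3% held TAACNG, 35.0% held CAACNG and 49.7% held at least 1 of the motifs, so a match is common. Mybl1 itself was at 11.27, 11.17 and 11.31 on replicates 1, 2 and 3, above background on every array. The Piwil1 window had 67.7% G+C and 18 CpG dinucleotides, the Piwil4 window 52.7% and 11, against medians of 52.7% and 7 over all promoters.

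Of the 4 Argonaute genes, Ago3 and Ago4 were just above the background level, Ago2 was just below it and Ago1 was farther below. Ago3 was at 8.38, 8.16 and 8.42 on replicates 1, 2 and 3. The lowest array, replicate 2, was still above the level, and the mean of 8.32 ± 0.14 (SD, n = 3) exceeded it by 0.34 (limma, adjusted p = 0.0487). The call was lost without replicate 1 (adjusted p = 0.247) and without replicate 3 (adjusted p = 0.283), and it was kept without replicate 2 (adjusted p = 0.0308), all by limma. The variance in this test is partly pooled over all genes, 46.0% of which were tied on all 3 arrays. Whether Ago3 would be called without the tied genes was not tested.

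Ago4, whose protein is known in mouse from the silenced sex chromosomes of spermatocytes, was at 8.21 on all 3 arrays, 0.23 above the background level. Ago1 was at 7.09 on all 3 arrays, a difference of -0.89 from the level. Ago1, Ago3 and Ago4 are neighbours on chromosome 4, where the order of coding genes in GRCm38.p6 is Ago3, Ago1 and Ago4, between the ciliary tektin gene Tekt2 and Clspn. Of these 3 neighbouring genes, the middle one was not called and the outer pair were. Ago3 and Ago4 were also below a stricter background, the 99th percentile of the same families at 9.16.

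Ago2 encodes the Argonaute that cuts a fully matched target, an activity essential in the mouse. Its level, the median of its 2 probe sets, was 7.71, 7.80 and 7.71 on replicates 1, 2 and 3. The mean of 7.74 ± 0.047 (SD, n = 3) differed from the background level by -0.24 (limma, adjusted p = 1.0). The probe sets disagreed about the side of the level. One was at 8.16 on all 3 arrays, 0.18 above it, and the other was at 7.27, 7.43 and 7.27, a mean difference of -0.66. Ago2 was above background when its higher probe set was used, and its call therefore rests on how the probe sets are combined.

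The promoters of the neighbours Ago4 and Ago1 are shown for the same reason as those of the Piwi genes. They are RefSeq sequences of build GRCm38.p6, both on the minus strand of chromosome 4, at chr4:126533409-126533708 and chr4:126468582-126468881. Neither window held a match to TAACNG or CAACNG, so no letters are in capitals.
Ago4: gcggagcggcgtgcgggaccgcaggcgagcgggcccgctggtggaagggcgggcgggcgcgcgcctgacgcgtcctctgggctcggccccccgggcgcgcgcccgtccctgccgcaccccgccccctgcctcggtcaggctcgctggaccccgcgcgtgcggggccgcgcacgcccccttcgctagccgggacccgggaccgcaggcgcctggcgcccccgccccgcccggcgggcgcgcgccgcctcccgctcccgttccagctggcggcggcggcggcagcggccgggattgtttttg
Ago1: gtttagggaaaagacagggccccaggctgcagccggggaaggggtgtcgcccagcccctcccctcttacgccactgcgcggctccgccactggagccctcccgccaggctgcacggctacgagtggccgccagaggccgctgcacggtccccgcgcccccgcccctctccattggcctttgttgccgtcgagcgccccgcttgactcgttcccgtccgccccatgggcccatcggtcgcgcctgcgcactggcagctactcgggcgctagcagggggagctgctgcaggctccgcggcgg

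Both windows were rich in G+C. The Ago4 window had 83.3% G+C and 54 CpG dinucleotides, and the Ago1 window 73.0% and 31. By CpG count they stood at percentiles 99.7 and 90.5 of all promoters. A second Ago1 start, overlapping the window shown, had 1 match to CAACNG. The gene above background and the gene not called thus both had CpG-rich promoters.

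Drosha and Dicer1, the genes of the microRNA-cutting enzymes, and Dgcr8 were all above background. Of the 211 background genes, 0 had a mean above that of Dgcr8, Piwil1 or Piwil2, and 1, at 9.88, was above Dicer1 and Drosha. For Ago3 and Ago4 there were 7 such genes each. Dgcr8, the double-stranded RNA binding protein that places Drosha on the hairpin, was at 10.04, 10.01 and 10.03 on replicates 1, 2 and 3. Its mean of 10.03 ± 0.018 (SD, n = 3) exceeded the background level by 2.04, a 4.12-fold signal (limma, adjusted p = 1.88e-05). The 3 arrays lay within 0.035 of each other.

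Drosha, the nuclear ribonuclease of this pair, was at 9.50 on all 3 arrays, 1.51 above the background level and 2.85-fold over it. Dicer1, the cytoplasmic ribonuclease whose loss in mouse germ cells disturbs sperm formation, was at 9.64, 9.55 and 9.55 on replicates 1, 2 and 3. Its mean of 9.58 ± 0.053 (SD, n = 3) exceeded the level by 1.59, or 3.02-fold (limma, adjusted p = 0.000257). Replicate 1 was the highest array, by 0.092, and all 3 were above 7.98.

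In the RefSeq promoter table, 8 of the 10 genes had an entry, all but Piwil2 and Ago2. Of these 8, 4 had a match to either motif in at least 1 window. Of all promoters 49.7% had a match, so no link between the motifs and the calls is drawn. The window of Ago3, a called gene, held neither motif. The Drosha window held 1 match to CAACNG, 162 bases before the gene start, and the Dicer1 and Dgcr8 windows held neither motif. Their windows had 37, 49 and 43 CpG dinucleotides for Drosha, Dicer1 and Dgcr8.

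Set beside all named genes, the 10 genes had a median level of 8.91, against 7.45 over all 19938. Because the probes differ, the places of single genes among all named genes describe these probe sets and not amounts of transcript. Piwil1, Piwil2 and Dgcr8 stood between percentiles 88.0 and 89.0, Drosha and Dicer1 at 82.9 and 83.8 and Ago4 and Ago3 at 66.0 and 67.7. The genes nearest the background level were Ago4 and Ago3, which differed from it by 0.23 and 0.34, and Ago2, which differed by -0.24.

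The spread between arrays was small for most of these genes, partly because many values were tied, for a reason the files do not give. For 5 of the 10, Piwil2, Piwil4, Ago1, Ago4 and Drosha, the level was exactly the same on all 3 arrays, as it was for 46.0% of all named genes. Replicates 1 and 3 were equal for Piwil1 and Ago2, as were replicates 2 and 3 for Dicer1. The SDs and p-values of Piwil1, Ago2 and Dicer1 thus rest on the gap to 1 array. The median SD was 0.0072 for the 10 genes, against 0.0075 for all genes and 0.054 for those whose values were not all tied. Ago3 varied most, with an SD of 0.14 that lay at percentile 92.6 of all genes and a gap of 0.25 between replicates 3 and 2.

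**Figure D2:**
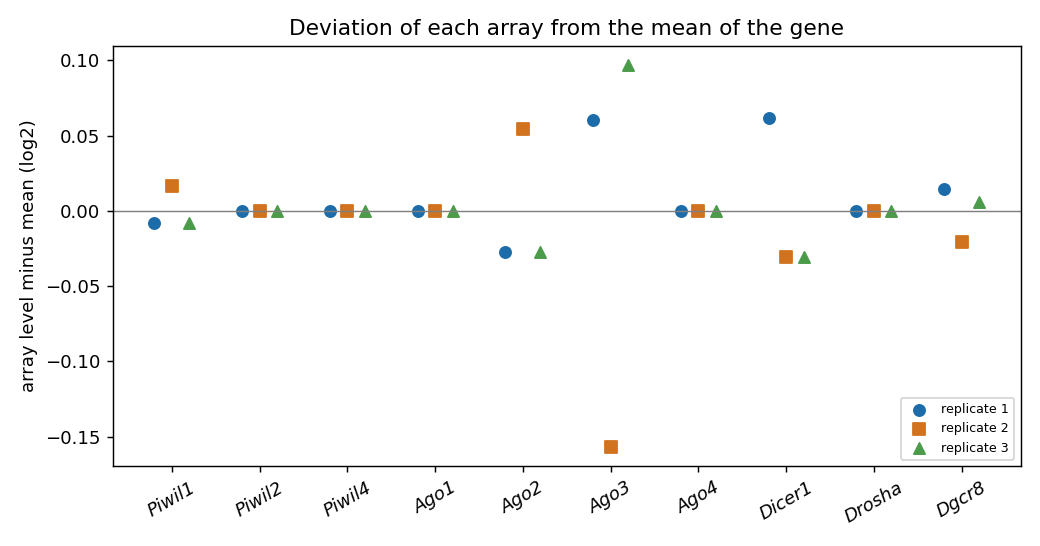
Level of each array minus the mean of the gene (log2), 1 point per array, for the 10 genes. Ago3 spans 0.25 with replicate 2 lowest, Dicer1 spans 0.092 and Ago2 0.081, and 5 genes have all points at 0.

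No array was high or low for all of the genes that varied. Replicate 2 was the lowest for Ago3 and Dgcr8 and the highest for Piwil1 and Ago2. Several marker lists were also lowest on replicate 2. On replicates 1, 2 and 3 the mean was 10.32, 10.19 and 10.26 for the 7 measured Leydig cell markers, 11.01, 10.96 and 11.09 for pachytene, 11.24, 11.20 and 11.29 for round spermatid and 12.32, 12.29 and 12.35 for elongating spermatid markers. The stromal, immune and Sertoli lists were lowest on replicate 2 too, and the spermatogonia list was not. The part of these shifts in the level of Ago3 was not tested.

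Partners of the Piwi proteins were nearly all above background. Of 22 listed piRNA pathway genes, 19 had a probe set of their own (not Fkbp6, Btbd18 or Spocd1), and 18 of these were called (94.7%, against 36.6% of all genes), with a median level of 10.42. Mael, a piRNA factor of the nuage, was at 12.36 ± 0.094 (SD, n = 3). The RNA helicase genes Ddx4 and Mov10l1, the second known to bind piRNA precursors in mouse, were at 12.01 ± 0.13 and 10.42 ± 0.033.

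Gtsf1, a Piwi partner, was at 11.69 ± 0.065 (SD, n = 3). The Tudor domain proteins bind methylated arginines of Piwi proteins and gather them in germ granules. Their genes Tdrd6, Tdrd12, Tdrd7, Tdrd1, Tdrd5 and Tdrd9 were at 11.80, 10.90, 10.68, 10.43, 9.93 and 9.74, and Tdrkh was at 9.56, all above background. Henmt1, which methylates piRNA ends, was at 9.84 ± 0.028 (SD, n = 3). Pnldc1, which trims piRNA ends in mouse, was at 7.33 on all 3 arrays and was the gene of this list that was not called. Exd1 was called at 8.15, tied over the arrays.

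**Figure D3:**
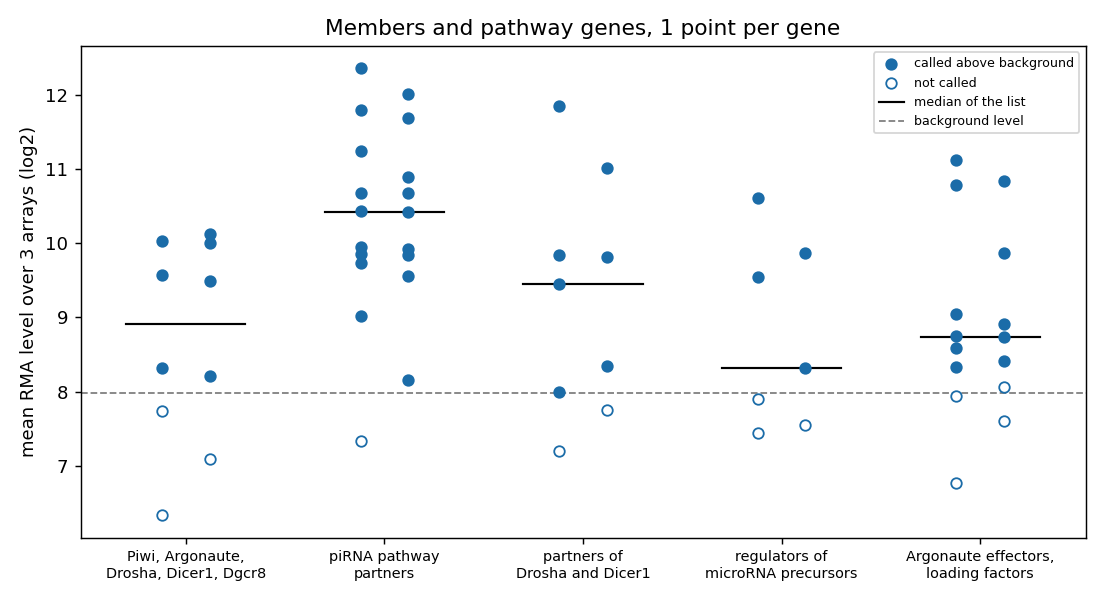
Mean RMA level over 3 arrays (log2), 1 point per gene, for the 10 genes and 4 lists of pathway genes, with filled points called above background, open points not called and a bar at each list's median. The list of piRNA pathway partners has 18 of 19 points filled and a median of 10.42, against 8.91 for the 10 genes.

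Of the 9 genes that work with Drosha and Dicer1, 7 were above background (77.8%, against 36.6% of all genes). The RNA helicase gene Ddx5 of the Drosha complex was at 11.85 ± 0.13 (SD, n = 3), and its paralog Ddx17 was at 9.81 ± 0.047. Xpo5, the exporter of microRNA hairpins, was at 9.44 on all 3 arrays, and Ran, the GTPase that drives it, at 11.01 ± 0.084 (SD, n = 3). Both of Dicer1's double-stranded RNA binding partners lay near the level: Tarbp2 at 8.34 and called, Prkra at 7.76 and not called, each tied over the arrays. The levels of Tarbp2 and Ddx5 are each the median of 2 probe sets, whose single levels were not examined. Adar, which edits double-stranded RNA, was at 7.19 ± 0.054 (SD, n = 3) and not called. Khsrp was called at 7.988 with tied values, only just above the level.

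Among 7 genes that act on microRNA precursors and their turnover, 4 were above background (57.1%, against 36.6% of all genes). This count depended on the background chosen, and all 7 were called against the level set from olfactory receptor genes, as were 55.0% of all genes. Tut4 and Tut7, which add uridines to precursors, were at 10.61 ± 0.086 (SD, n = 3) and at 9.87 with tied values. Zswim8, the adaptor of a ubiquitin ligase in microRNA decay, was at 9.54 ± 0.0084, and Trim71 at 8.31 ± 0.056. Lin28a and Lin28b, which block let-7 precursors, were at 7.44 and 7.55 on all 3 arrays and were not called, nor was the exonuclease gene Dis3l2 at 7.90. Without replicate 1 and without replicate 2, 3 of the 7 genes were called.

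Genes that act with or load the Argonautes were above background in 11 of 15 measured members (Hsp90ab1 had no probe set of its own), with a median of 8.74. That is 73.3% of them, against 36.6% of all genes. At the 99th percentile of the background families 4 of the 15 were called (26.7%), against 19.3% of all genes. The GW182 scaffold genes Tnrc6a, Tnrc6b and Tnrc6c were at 8.75, 8.91 and 8.74, each tied over the arrays. Ddx6, a helicase of translational repression, was at 10.84 ± 0.036 (SD, n = 3), and Gigyf2 and Eif4e2, a pair that block cap-dependent translation, at 10.78 ± 0.074 and 9.87. The chaperone gene Hspa8 was at 11.13 ± 0.12 (SD, n = 3), the median of 3 probe sets whose single levels were not examined. Ajuba at 6.76, Limd1 at 7.60 and Wtip at 7.94, the 3 LIM domain proteins that bind Argonautes, were not called. Tsn, which in mouse testis binds germ cell mRNAs and with Tsnax forms a nuclease, was called at 8.34 ± 0.14 (limma, adjusted p = 0.0442), and Tsnax at 8.06 ± 0.033 was not (adjusted p = 0.0575). As for Ago3, whether Tsn would be called without the tied genes was not tested.

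The 5 genes farthest above the level kept their call under every alternative that was run. These were Piwil1, Piwil2, Dicer1, Drosha and Dgcr8, and at the 99th percentile of the background families, where 19.3% of all genes were called, they were the only called members. Against the level set from olfactory receptor genes (7.18), 55.0% of all genes and 8 of the 10 were called, Ago2 among them. Piwil4 and Ago1 were above background only against the median of the background families, where 94.3% of all genes were. With the highest probe set per gene 8 of the 10 genes and 37.3% of all genes were called. With probe sets of several genes added these were 5 of the 10 and 31.6% of all. Centring the arrays gave 7 of the 10 and 36.8%, an intensity trend in the variance 7 and 36.6%, and asking for all 3 arrays above the level, with no test, 7 and 37.6%. Without replicate 1 the call held for 6 of the 10 genes and 33.4% of all, without replicate 2 for 7 and 35.6%, and without replicate 3 for 6 and 34.1%.

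**Figure D4:**
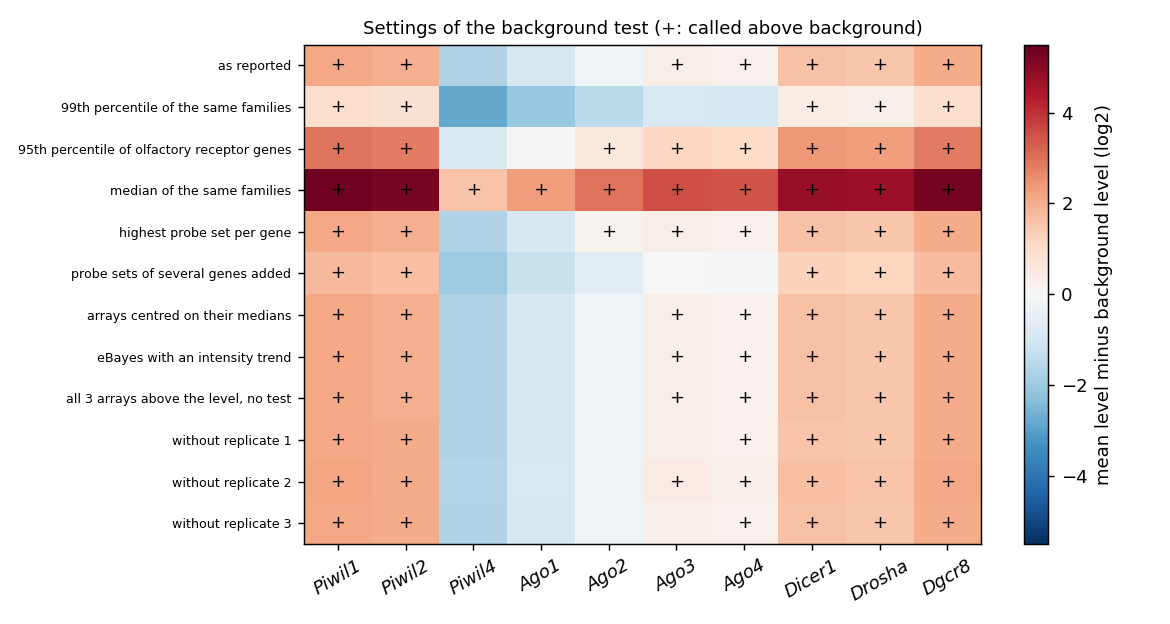
Mean level minus background level (log2, colour) for the 10 genes under each setting of the test, with a plus sign where the gene was called above background. Piwil1, Piwil2, Dicer1, Drosha and Dgcr8 carry a plus sign in every line, Piwil4 and Ago1 only in the line of the background families' median, and the signs of Ago2, Ago3 and Ago4 vary.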

How the data were processed

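Total RNA, 200 ng per sample, was labelled with biotin by the Ambion WT kit, per the labels' protocols. The values are log2 levels per probe set that the authors deposited for 3 arrays. They were made by RMA in Affymetrix Power Tools with annotation based on mm9, per the series' design text; no source used here gives the software version. There were 35556 probe sets, and the arrays' medians were 7.17, 7.20 and 7.17. No scanner files, detection calls or protein sequences were used, and the number of arrays limits the precision.

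The platform annotation named 1 gene for 21789 probe sets, several for 1621 and none for 12146. Symbols were updated by Entrez identifier to GRCm38.p6 (21698 matched). A gene is the median of the probe sets naming only it. limma 3.58.1 in R 4.3.3 fitted an intercept with empirical Bayes variances (prior degrees of freedom 0.267). In a simulation of 19938 genes without ties, it called 2 of 19738 not planted above the level, and 26, 36, 41 and 48 of 50 planted 0.25, 0.5, 1 and 2 above it. Tied genes were absent from that simulation, so its rates do not cover them. Rates for untied genes may differ too. On the measured arrays 7295 of 19938 genes were called, far more than were planted. The Benjamini-Hochberg cutoff loosens as more genes are called. The pooled variance of the measured arrays also drew on their tied genes. The 2 of 19738 is therefore no estimate of the false calls on these arrays. All 10 genes, each pathway list's highest and lowest gene, and others chosen for their role are named. Alternatives changed the background level, the probe set rule, the scaling, the variance trend, the call rule and the arrays used. The genes and lists were chosen with earlier results of these data known.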

Additional observations from a re-analysis of the deposited data

How the results depend on the processing

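The count of 7 genes above background ranged from 5 to 10 over the alternatives, and from 6 to 7 when 1 array was left out. Piwil1, Piwil2, Dicer1, Drosha and Dgcr8 kept direction and call in all of them. Against the 99th percentile of the background families, Ago3 and Ago4 lay at -0.84 and -0.95 relative to the level, and 4 of the 15 Argonaute effectors and loading factors were called (26.7%), against 19.3% of all genes. With probe sets of several genes added, which raised the level to 8.33, Ago3 and Ago4 lay at -0.0067 and -0.11. Against olfactory receptor genes Ago2 lay at 0.56 and all 7 regulators of microRNA precursors and turnover were called; with its highest probe set Ago2 lay at 0.18. Against the background families' median, Ago2, Ago1 and Piwil4 lay at 2.97, 2.32 and 1.56, and all 7 regulators were called. Each of these changes follows from the level or the probe set chosen. Without single arrays, Ago3 exceeded the level by 0.29 to 0.46, with limma's adjusted p from 0.0308 to 0.283. Centring the arrays left 0 of the 5 tied members tied, and the same 7 members were called. No paired analysis was possible because there is 1 group.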

Other observations

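Probe sets of microRNA genes, whose transcripts Drosha and Dicer1 cut, were mostly not above background. Of 297 microRNA genes with a probe set of their own, 18 were called (6.06%), against 36.6% of all named genes, and their median level was 5.32. Mature microRNAs were not analysed here. These genes were named after their values were seen. Mir598 was at 10.22, 10.22 and 10.18 on replicates 1, 2 and 3, Mir383 at 9.31 on all 3 arrays, and Mir346 at 9.82, 10.06 and 9.60. The 3 copies of Mir680, on chromosomes X, 12 and 6, were at 10.85 with tied values, 8.76 ± 0.11 and 8.52 ± 0.084 (SD, n = 3).

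The miR-34 and miR-449 genes, known from germ cells of the mouse testis, were not called. The 5p mature microRNAs of 4 of them are shown as RefSeq sequences of build GRCm38.p6, with the seed they share in capitals (bases 2 to 8). That of Mir34c is not shown, and its seed was not compared.
miR-449c-5p: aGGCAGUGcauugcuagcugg
miR-449a-5p: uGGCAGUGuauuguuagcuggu
miR-34b-5p: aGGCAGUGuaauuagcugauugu
miR-34a-5p: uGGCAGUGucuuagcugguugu
Mir449c was at 6.84 ± 0.080 (SD, n = 3), and Mir449a, Mir34b, Mir34a and Mir34c were at 6.82, 6.70, 4.73 and 4.35 on all 3 arrays. Their differences from the background level were -1.14 for Mir449c, -1.17 for Mir449a, -1.28 for Mir34b, -3.25 for Mir34a and -3.64 for Mir34c. Probes of different genes do not bind equally well, and a gene that was not called is not shown to be silent. These levels are therefore not compared with those of Dicer1, Drosha and Dgcr8.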
